A study of Drosophila melanogaster with 8 samples.

Results

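The UDP-glycosyltransferase (UGT) family of Drosophila melanogaster was followed in the adult female fat body. Its members were taken by name, as every gene in the count files whose symbol starts with Ugt and a digit, together with family genes filed under older symbols such as CG5999 or Dot. This gave 35 of the 17411 genes, all 35 with a FlyBase identifier. The listed symbol CG13270 had no row of its own, because the files carry that gene as Ugt36Ba. RNA-seq was made from poly(A) RNA of cuticle on which the fat body had been left, taken from females 1 week old. The 4 control libraries came from yolk-Gal4/w1118 flies, which carry the driver over a w1118 chromosome and no hairpin. The 4 libraries of the other group, called RNAi here, came from yolk-Gal4>9G8RNAi flies, in which the driver expresses a hairpin against the SR splicing factor 9G8, encoded by x16. All flies thus carried the driver, which uses regulatory sequence of a yolk protein gene, a class of genes that the adult female fat body expresses strongly. The insertion that carries the hairpin, and the strain it came from, also set the groups apart, and their effects cannot be told apart from that of the hairpin. No label says how many flies were pooled, or whether flies of 1 genotype were reared separately for each library, so p-values here measure the spread among these libraries alone.

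UGTs are membrane enzymes of the endoplasmic reticulum that move a sugar from a UDP-sugar donor onto small lipophilic molecules. In insects the usual donor is UDP-glucose. The resulting glycosides are more soluble in water and can be exported from the cell, and the family is best known for handling plant toxins, insecticides, pigments, odorants and hormones. Together with cytochrome P450 enzymes, which expose reactive groups, and export pumps, which remove the conjugates, the family belongs to the detoxification machinery that the fat body shares with the gut and the Malpighian tubules. Members are named by sequence subfamily, and those of a subfamily often lie side by side.

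Libraries held 25396063 to 36181492 counts. All 9846 genes that passed the filter on low counts entered edgeR's quasi-likelihood test with Benjamini-Hochberg adjustment, and calls were made at an adjusted p below 0.05. Levels are in CPM, counts scaled to the effective size of each library, and a log2 change is that of RNAi over control. The targeted gene x16 spanned 60.4 to 325.5 CPM in controls and 34.7 to 198.6 CPM in RNAi, so the groups overlapped (log2 change -0.63 ± 0.63 SE, adjusted p = 0.862), and no lower level of it was detectable. Without control 3 the log2 change of x16 was 0.10 (adjusted p = 0.994). Control 3, RNAi 1 and control 4, the libraries with most x16 at 325.5, 198.6 and 145.1 CPM, also had the highest sums of 6 germline markers, 322.8, 264.8 and 197.5 CPM, against 4.27 to 108.8 CPM in the others. The part of germline RNA in the level of x16 was not tested. Eggshell markers summed to 1.93 to 1379.6 CPM in controls and 14.3 to 2146 CPM in RNAi. All 8 fat body markers were detected, at a summed 7698 to 11973 CPM in controls and 11984 to 20382 CPM in RNAi. Most of the RNAi sum came from the yolk protein genes Yp1, Yp2 and Yp3, at means of 2098, 5013 and 5379 CPM. Lsd-1 and Rfabg had log2 changes of -0.62 and -0.01, and the marker gene to had one of 0.46. Among the fat body markers Lsp2 and Obp99b fell and Yp2 rose. RNA of other tissues was present as well. The 12 midgut markers summed to 254.4 to 21380 CPM in controls and 17001 to 44847 CPM in RNAi. Of these markers 3 rose, beside 0.995% of all tested genes, and the rest did not pass. In such bulk samples, fewer cells of a type and less RNA per cell cannot be told apart.

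Of the 35 UGT genes, 20 passed the filter and were tested. Among these, 4 rose in RNAi, 0 fell and 16 did not pass, while over all tested genes 3.21% were called, 0.995% as higher and 2.21% as lower. At an unadjusted p below 0.05 there were 7 members higher and 0 lower. The share of all tested genes at that level was not computed, so this count has nothing to be set against. Beyond the 4 called it adds Ugt86Dd, Ugt86Di and CG10170, with adjusted p from 0.293 to 0.358 by edgeR. DESeq2 called 4 members higher and 0 lower. The 4 that rose were CG5999 (Ugt37A3), CG5724 (Ugt37A2), CG15661 (Ugt49C1) and CG4302 (Ugt49B1), which are 2 pairs of neighbouring genes. In 5 members, these 4 and Ugt86Di, every RNAi library lay above every control. The groups lay apart in 8.73% of all tested genes, with RNAi higher in 2.96% and lower in 5.78%. The median log2 change of the 20 tested members was 0.61, beside 0.01 for all tested genes. It was above 0 in 18 of the 20, beside 50.8% of all tested genes. Without RNAi 2 the median of the members was 0.28, and 15 of the 20 were above 0. A scarce gene can pass the filter through the group in which it is high, so these values describe the 20 tested genes and not the whole family.

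**Figure D1:**
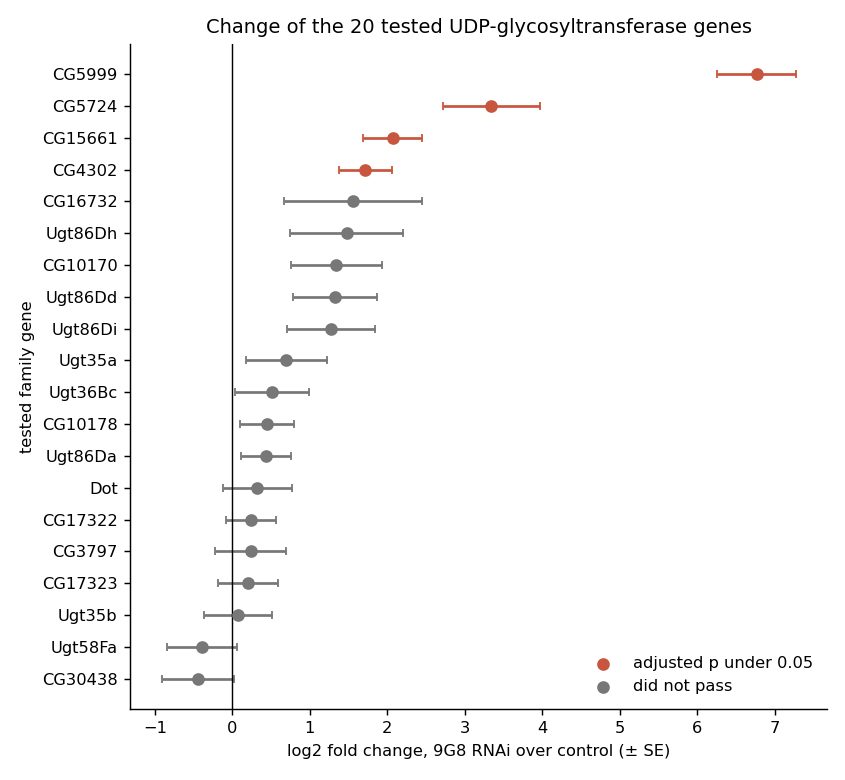
Log2 fold change of 9G8 RNAi over control, with its standard error, for the 20 tested UDP-glycosyltransferase genes in order of size. The 4 red points passed an adjusted p of 0.05, and the 16 grey points, between -0.44 and 1.56, did not.

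In the control libraries, which also hold RNA of other tissues, the UGT pool was led by a single gene. Different genes are compared per transcript length, as TPM, which corrects counts for exon length and library size. In controls CG17323 (Ugt36D1) stood first at 46.1 ± 8.75 TPM (SD, n = 4) and made up 41.0% to 56.9% of the family's summed TPM. Next came CG15661 at 7.89 ± 2.49 TPM, CG10178 (Ugt301D1) at 7.64 ± 2.45 TPM, CG4302 at 6.03 ± 0.90 TPM and Ugt86Da (Ugt302C1) at 4.96 ± 0.82 TPM. The order of neighbours among these 4 lies within their spread over libraries. In controls 10 of the 35 members had a mean above 1 TPM, and in RNAi 15 did. The RNAi means in TPM lean on RNAi 2, where the family summed to 515.2 TPM, against 184.7 to 198.8 TPM in the other RNAi libraries. CPM, unlike TPM, uses the scaling factors, and the family sums in RNAi 1 to 4 were 329.2, 556.6, 467.7 and 530.2 CPM. On that scale RNAi 2 was thus close to RNAi 4. Dot, Ugt86Dd and Ugt35a are among the members with a mean above 1 TPM only in RNAi, although none of them passed. Their highest values, 2.38, 8.66 and 6.31 TPM, were all in RNAi 2. CG5999 ranked 14 in controls, at 0.611 ± 0.197 TPM, and 1 in RNAi, at 87.2 ± 56.4 TPM.

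**Figure D2:**
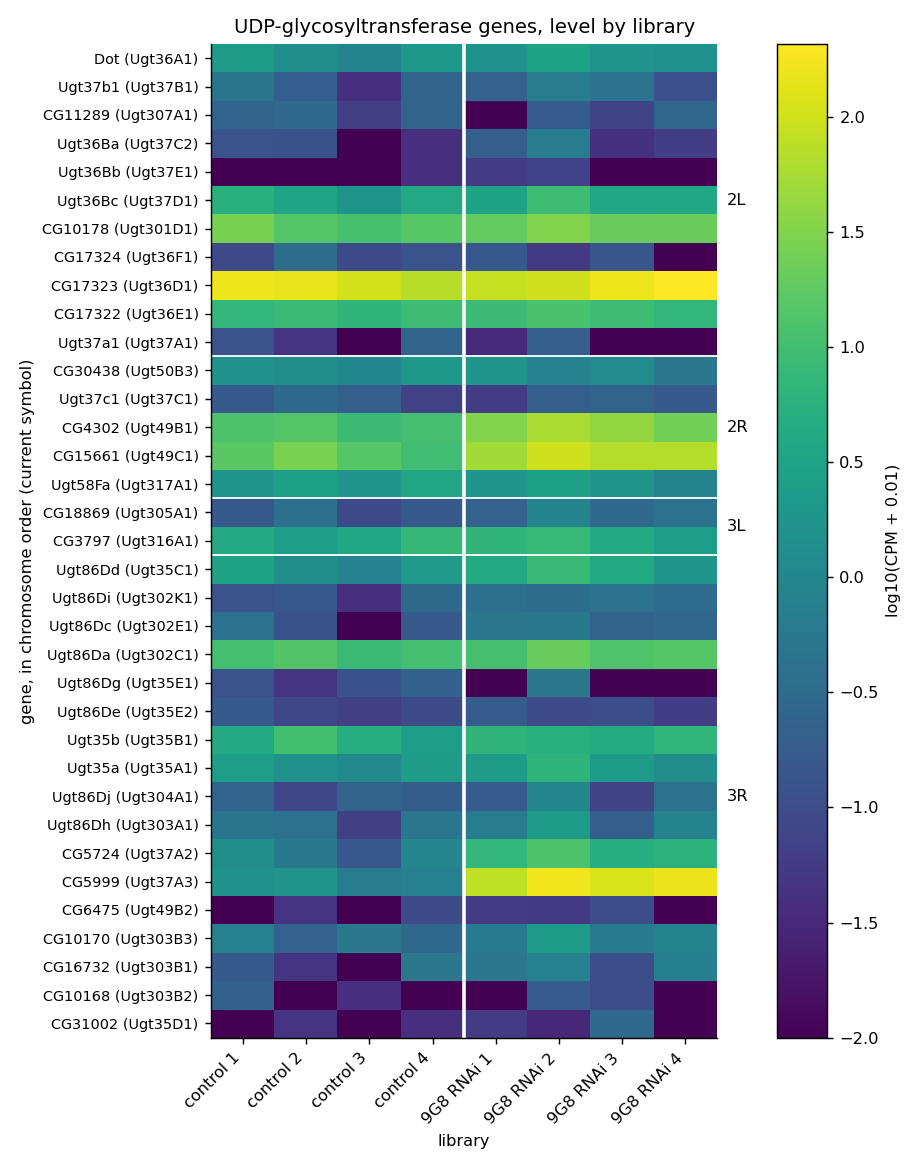
Level of each of the 35 genes in each library as log10(CPM + 0.01), genes in chromosome order with the current symbol in parentheses. CG17323 is high in all 8 libraries, and CG5999 goes from 0.672 to 1.74 CPM in controls to 79.0 CPM or more in 9G8 RNAi.

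CG5999 had the family's largest change. It lies on the minus strand of 3R from 12741958 to 12743680 (BDGP6). Controls 1 to 4 were at 1.62, 1.74, 0.672 and 0.746 CPM, from 24 to 48 reads each. RNAi 1 to 4 were at 79.0, 164.9, 119.1 and 155.9 CPM, from 2999 to 7645 reads each. The lowest RNAi library thus stood far above the highest control. The mean rose from 1.19 ± 0.56 to 129.7 ± 39.2 CPM (SD, n = 4), by 6.77 ± 0.51 (SE) on the log2 scale, or 108.9-fold (adjusted p = 1.2e-04 by edgeR). It passed in all 17 other settings of the fit, with log2 changes from 6.44 to 7.07. Of the 12 midgut markers, mag, thetaTry and lambdaTry rose, and in each of them every RNAi library lay above every control. The lipase gene mag was at 0 to 0.158 CPM in controls and 2.85 to 41.3 CPM in RNAi. The trypsin genes thetaTry and lambdaTry were at 0.0839 to 3.44 CPM and 0.168 to 1.26 CPM in controls, against 5.59 to 128.1 CPM and 2.68 to 47.2 CPM in RNAi. The rest of the midgut markers did not pass. Among them Jon25Bii, Jon65Aiii, Jon65Aiv and Jon99Ciii had every RNAi library above every control, as did 2.96% of all tested genes. The groups overlapped for alphaTry, betaTry, Jon25Bi, Amy-p and Amy-d, and the log2 changes of Amy-p and Amy-d were -0.26 and -0.05. The summed midgut level overlapped between the groups. The part of midgut RNA in the level of CG5999 was not tested.

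CG5724 lies beside it on the plus strand of 3R, from 12739642 to 12741417, so that the genes point towards each other with 540 bp between their 3′ ends. Both belong to subfamily 37A. Controls 1 to 4 held 1.34, 0.544, 0.140 and 0.984 CPM of CG5724, and RNAi 1 to 4 held 7.13, 12.7, 4.80 and 5.82 CPM. The groups did not overlap. By mean TPM CG5724 ranked 16 in the family in controls and 8 in RNAi. Its mean rose from 0.753 ± 0.524 to 7.61 ± 3.53 CPM (log2 change 3.34 ± 0.63 SE, adjusted p = 0.0125). Without RNAi 2 it did not pass (log2 change 2.97, adjusted p = 0.0562). How the authors' counting treated multi-mapping reads is not given, so counts of such close relatives are uncertain where they share sequence.

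The balance within this pair was compared as a ratio. Per transcript length, CG5999 was 1.23, 3.21, 4.57 and 0.781 times as abundant as CG5724 in controls 1 to 4. The ratio was 11.3, 13.3, 25.4 and 27.4 in RNAi 1 to 4. All ratios in RNAi were thus above those of controls, by 3.21 on the log2 scale. An exact two-sided permutation test over libraries gave p = 0.0286, the smallest that 4 against 4 can give. Adjusted over the 9 pairs of neighbouring members compared, p was 0.257 (exact permutation test). The difference did not pass, but with 4 against 4 libraries a single pair cannot fall below 0.05 after this adjustment. The adjusted value therefore decides nothing about this pair. Ugt37a1, the other gene of the subfamily, lies alone on 2L and was nearly silent, with 12 reads over all controls and 10 over all RNAi libraries.

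CG15661 and CG4302 form the other pair, on the minus strand of 2R, with 462 bp between them. CG15661 spans 21215435 to 21217779. It was at 16.2, 28.3, 15.1 and 9.81 CPM in controls 1 to 4. It was at 53.0, 100.5, 69.5 and 68.6 CPM in RNAi 1 to 4. The lowest RNAi value lay above the highest control value. The mean rose from 17.4 ± 7.81 to 72.9 ± 19.9 CPM (log2 change 2.07 ± 0.38 SE, adjusted p = 0.0116), on 329 to 4661 reads in each library. The call held when each library was left out in turn, with adjusted p up to 0.0399.

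CG4302 spans 21212880 to 21214972. Controls 1 to 4 held 13.0, 14.4, 8.95 and 11.2 CPM, and RNAi 1 to 4 held 31.5, 58.9, 41.0 and 24.999 CPM. The groups did not overlap, and RNAi 4 came closest to the controls. The mean rose from 11.9 ± 2.35 to 39.1 ± 14.7 CPM (log2 change 1.72 ± 0.34 SE, adjusted p = 0.0179). Of the 4 calls this one was lost most often, in 5 of 17 other settings. It ended without control 3 (adjusted p = 0.0507) or without RNAi 3 (adjusted p = 0.0616), while the log2 change stayed between 1.42 and 1.92 with each library left out. Exons of CG4302 overlap those of CG44245 on the opposite strand, and the strand setting of the counting is not given. CG44245 stood at 3.498 to 13.0 CPM in controls and 1.92 to 11.7 CPM in RNAi and did not pass (adjusted p = 0.944).

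Per transcript length CG15661 stood at 0.806 to 1.81 times CG4302 in controls and 1.56 to 2.53 times in RNAi. The ranges overlapped, and the ratio differed by 0.47 on the log2 scale (p = 0.200 by the exact two-sided permutation test, 0.600 over the 9 pairs). The other gene of family 49 in these data, CG6475 (Ugt49B2) on 3R, had 4 reads over all controls and 7 over all RNAi libraries.

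**Figure D3:**
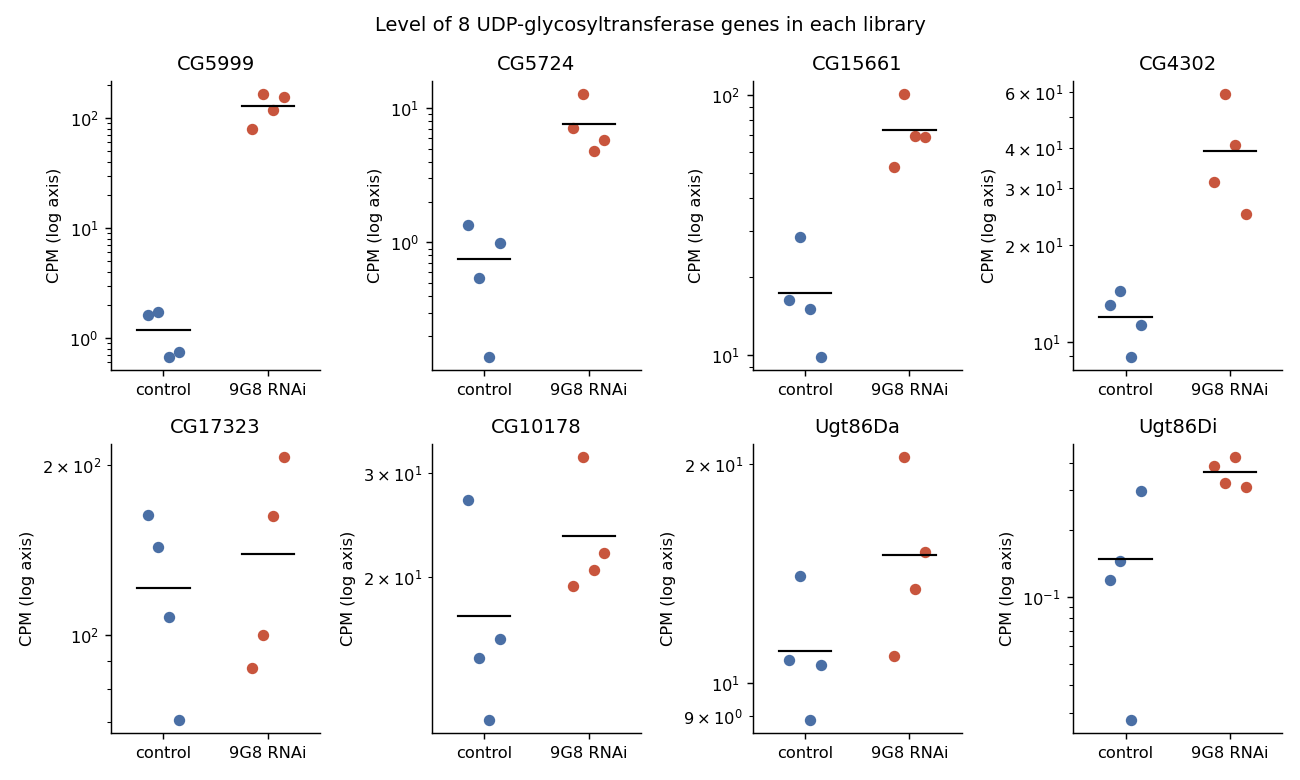
CPM of 8 genes on log axes, 1 point per library and a line at the mean of the 4 libraries. For CG5999, CG5724, CG15661, CG4302 and Ugt86Di all 9G8 RNAi points lie above all control points, and for CG17323, CG10178 and Ugt86Da the groups overlap.

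The nearest tested genes around the changed pairs did not pass. The 3 on each side of each pair, 12 in all at 76 to 206361 bp, gave 0 calls by edgeR (adjusted p of 0.176 or more) and 0 by DESeq2. Over all tested genes edgeR called 3.21%, so 0 calls among 12 genes is near that share. At an unadjusted p below 0.05 there was 1, and the share of all tested genes at that level was not computed. Beyond CG5999 they are distant, the closest being CG31345 at 67464 bp. ASPP, 76 bp from CG15661, had a log2 change of 0.51 ± 0.44 (SE, adjusted p = 0.816). Men, a malic enzyme gene 17199 bp from CG5724, had one of 0.12 ± 0.43 (SE, adjusted p = 0.969).

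The rises other than that of CG5999 did not pass without a certain pair of libraries. With both control 3 and RNAi 2 omitted, CG5999 passed (log2 change 6.44, adjusted p = 0.0110). CG5724 then had a log2 change of 2.63 (adjusted p = 0.0623), CG15661 one of 1.81 (adjusted p = 0.0965) and CG4302 one of 1.33 (adjusted p = 0.0774). With both control 4 and RNAi 1 omitted, CG4302 was lost (log2 change 1.80, adjusted p = 0.0646) and the other 3 genes passed.

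**Figure D4:**
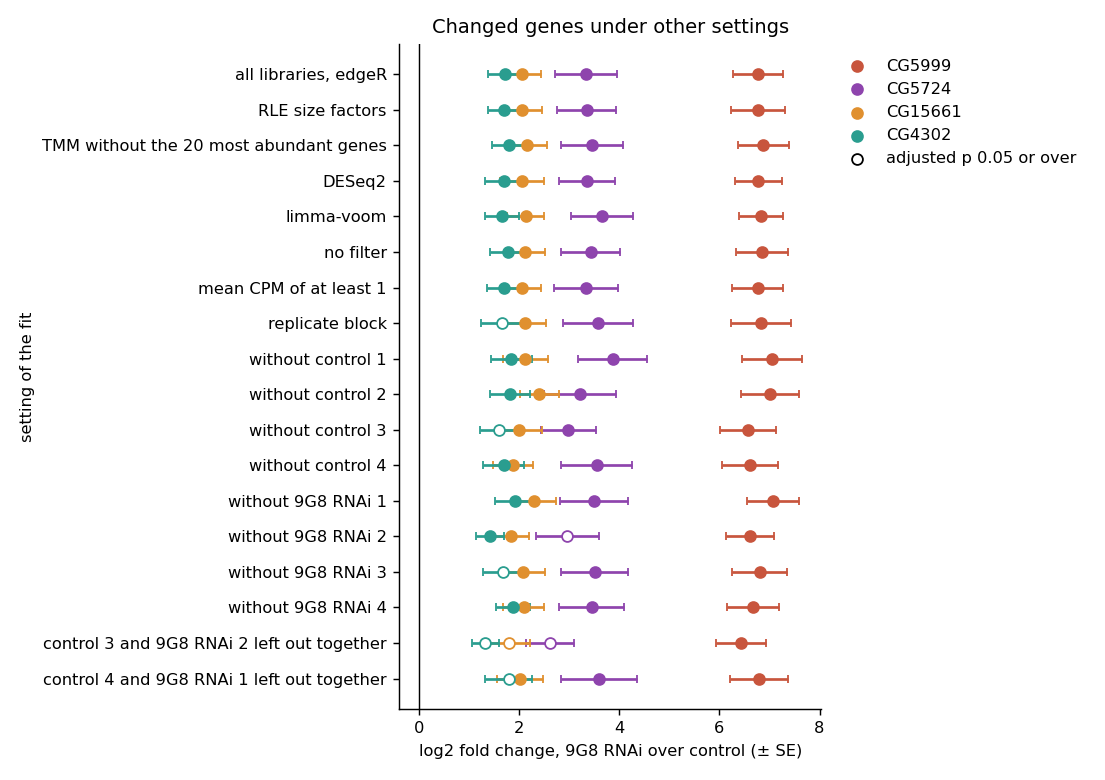
Log2 fold change with its standard error for the 4 genes that rose, in the fit on all libraries and in 17 other settings; open points did not pass an adjusted p of 0.05. CG5999 stays between 6.44 and 7.07 and passes in all of them, and CG5724, CG15661 and CG4302 keep their direction in all of them.

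The make-up of the UGT pool shifted with these genes. Their summed level was 31.2 ± 10.04 CPM in controls and 249.3 ± 68.7 CPM in RNAi (SD, n = 4). The other 31 genes summed to 237.0, 207.6, 151.7 and 135.9 CPM in controls 1 to 4 and 158.7, 219.6, 233.3 and 274.9 CPM in RNAi 1 to 4, and these ranges overlapped. As a share of the family's TPM, the changed genes took 14.0% to 20.3% in controls and 53.9% to 64.8% in RNAi. CG5999 alone went from at most 0.865% of the pool in a control to at least 27.6% in an RNAi library. CG17323 took 14.7% to 33.3% of the pool in RNAi. CG5999 exceeded it in RNAi 1, 2 and 4, and RNAi 3 held 29.58% of CG5999 and 29.59% of CG17323. These shares restate the changes above on another scale and carry no test.

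**Figure D5:**
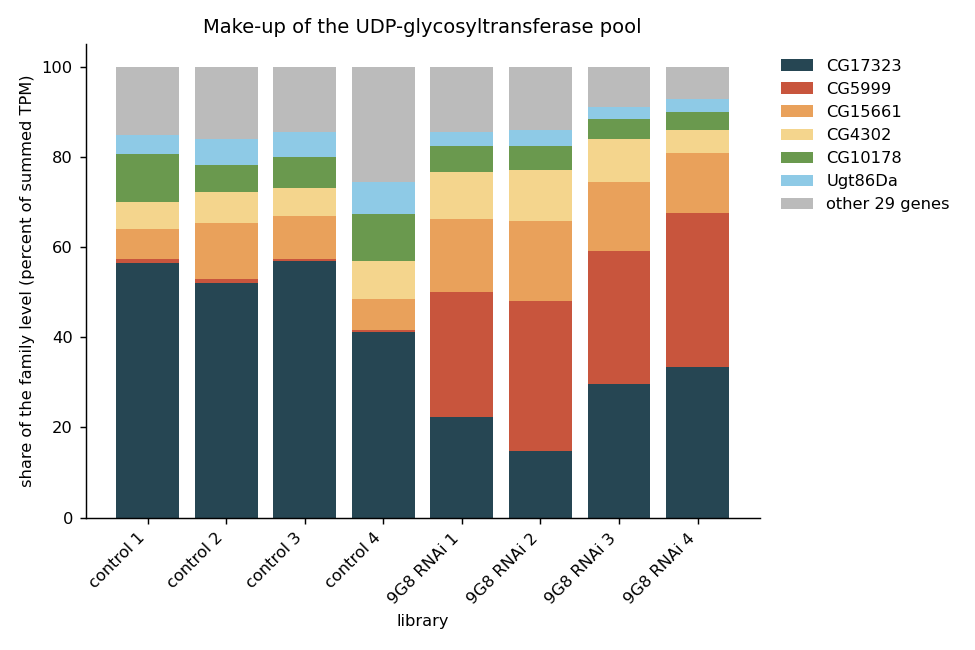
Share of the family's summed TPM taken by 6 abundant genes and by the other 29 genes, 1 bar per library. CG5999 takes 0.486% to 0.865% in the controls and 27.6% to 34.2% in the 9G8 RNAi libraries.

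The abundant members outside the 2 pairs did not pass. CG17323, on 2L from 18823548 to 18826716, was at 162.9, 142.9, 107.3 and 70.7 CPM in controls 1 to 4. It was at 87.2, 99.9, 162.6 and 206.9 CPM in RNAi 1 to 4, so that most of both ranges coincided (log2 change 0.20 ± 0.39 SE, adjusted p = 0.942). CG10178 stood at 27.0, 14.6, 11.4 and 15.7 CPM in controls and 19.3, 32.0, 20.5 and 21.9 CPM in RNAi. Control 1 lay above 3 of the 4 RNAi libraries (log2 change 0.45 ± 0.34 SE, adjusted p = 0.756). Ugt86Da stood at 10.8, 14.0, 8.90 and 10.6 CPM in controls and 10.9, 20.5, 13.5 and 15.1 CPM in RNAi. Here control 2 lay above 2 of the 4 RNAi libraries (log2 change 0.44 ± 0.32 SE, adjusted p = 0.738). CG17322 (Ugt36E1), 53 bp downstream of CG17323, stood at 8.03 ± 1.35 CPM in controls and 9.49 ± 2.04 CPM in RNAi (log2 change 0.24 ± 0.32 SE, adjusted p = 0.905). Its exons overlap those of CG17597 on the opposite strand, which stood at 38.9 CPM or more in each library. The trio's remaining gene, CG17324 (Ugt36F1), held at most 9 reads in a library.

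Members less than 25 kb apart formed 6 clusters with 23 genes, and 12 genes lay alone. Both clusters described first consist only of genes that rose. In the other 4 clusters, with 19 genes of which 11 were tested, 0 passed, beside 3.21% called over all tested genes. Among so few genes a count of 0 is near that share. The largest of them spans 51.3 kb of 3R from 11126597 to 11177910 and holds 10 members of families 35, 302, 303 and 304. Its 6 tested genes had log2 changes from 0.07 to 1.48. By chromosome arm there were 17 members on 3R, 11 on 2L, 5 on 2R and 2 on 3L.

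Within this cluster, Ugt86Dd (Ugt35C1) is known for natural alleles that affect resistance to nicotine. It stood at 3.08, 1.38, 0.811 and 2.18 CPM in controls and 4.11, 8.37, 4.21 and 1.87 CPM in RNAi. RNAi 4 lay inside the control range, and the gene did not pass (log2 change 1.32 ± 0.54 SE, adjusted p = 0.293). Ugt86Di (Ugt302K1) stood at 0.119, 0.145, 0.0280 and 0.298 CPM in controls and 0.387, 0.324, 0.424 and 0.312 CPM in RNAi. These values did not overlap, but they rest on 1 to 10 reads per control and 6 to 16 per RNAi library (log2 change 1.28 ± 0.56 SE, adjusted p = 0.358). Ugt86Dh (Ugt303A1) stood at 0.352 ± 0.200 CPM in controls and 0.964 ± 0.866 CPM in RNAi (log2 change 1.48 ± 0.73 SE, adjusted p = 0.445). Its values rest on 2 to 16 reads per control and 6 to 102 per RNAi library.

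Ugt35b (Ugt35B1), known for its expression in the antenna, stood at 2.62 to 10.3 CPM in controls and 4.47 to 7.02 CPM in RNAi, inside the control range (log2 change 0.07 ± 0.44 SE, adjusted p = 0.984). Its neighbour Ugt35a (Ugt35A1) stood at 1.15 to 2.65 CPM in controls and 1.35 to 6.49 CPM in RNAi (log2 change 0.70 ± 0.53 SE, adjusted p = 0.753). The ratio of Ugt35a to Ugt35b per transcript length ranged from 0.140 to 0.854 in controls and 0.184 to 1.17 in RNAi, so their balance differed several-fold between libraries of the same genotype.

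The remaining tested members were scarce and did not pass. In the 303B trio on 3R, CG10170 stood at 0.217 to 0.751 CPM in controls and 0.604 to 2.39 CPM in RNAi (log2 change 1.34 ± 0.59 SE, adjusted p = 0.350). CG16732 of the same trio was at 0 to 0.507 CPM and 0.0979 to 0.798 CPM (log2 change 1.56 ± 0.89 SE, adjusted p = 0.560). Its values rest on 0 to 17 reads per control and 3 to 37 per RNAi library. Ugt36Bc (Ugt37D1), the only tested gene of its trio on 2L, was at 1.71 to 5.38 CPM and 3.24 to 9.60 CPM (log2 change 0.51 ± 0.48 SE, adjusted p = 0.839). In each of these genes the groups overlapped.

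Dot (Ugt36A1, Dorothy), whose regulatory sequence drives a Gal4 line used for pericardial cells, stood at 0.867 to 2.21 CPM in controls and 1.51 to 3.17 CPM in RNAi (log2 change 0.32 ± 0.45 SE, adjusted p = 0.911). Its exons overlap those of CG15418 on the opposite strand, which reached 3.13 CPM in control 4. CG3797 (Ugt316A1) stood at 2.54 to 7.55 CPM in controls and 2.55 to 7.83 CPM in RNAi (log2 change 0.24 ± 0.46 SE, adjusted p = 0.942). Ugt58Fa (Ugt317A1) and CG30438 (Ugt50B3) were the tested members with a log2 change below 0. Ugt58Fa stood at 1.74 to 3.37 CPM in controls and 0.832 to 2.80 CPM in RNAi (log2 change -0.39 ± 0.45 SE, adjusted p = 0.889). CG30438, of a UGT group conserved across insects, stood at 1.007 to 1.998 CPM in controls and 0.520 to 1.77 CPM in RNAi (log2 change -0.44 ± 0.46 SE, adjusted p = 0.865).

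The 15 members that were not tested were barely detected, at 0 to 0.971 CPM and at most 45 reads in a library. They are Ugt36Ba, Ugt36Bb, Ugt37a1, Ugt37b1, Ugt37c1, Ugt86Dc, Ugt86De, Ugt86Dg, Ugt86Dj, CG6475, CG10168, CG11289, CG17324, CG18869 and CG31002. Summed over all 8 libraries they had 6 reads (Ugt36Bb) to 89 reads (CG18869). A count of 0 allows up to 3 reads, or 0.0647 to 0.156 CPM depending on the library, for counting error only. Exons of CG11289 overlap those of Pvf2 on the opposite strand, which fell (log2 change -2.19 ± 0.43 SE, adjusted p = 0.0157).

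RNAi 2 stood high for much of the family. Among the RNAi libraries it was the highest in 16 of the 20 tested members, beside 38.3% of all tested genes, the exceptions being CG17323, CG30438, Ugt86Di and Ugt35b. Control 3 was the lowest control in 14 of the 20, beside 29.1% of all tested genes. With both omitted the median log2 change of the 20 members was 0.22, and 14 of the 20 values were above 0. RNAi 2 had the largest scaling factor, 1.54, against 0.758 to 1.201 in the other libraries. These 2 libraries also held the highest and the lowest sum of fat body markers, 20382 and 7698 CPM, most of it from yolk protein genes. Control 3 had the lowest sum of midgut markers, 254.4 CPM, and RNAi 2 the highest sum of oenocyte markers, 11101 CPM against 4695 to 7863 CPM in controls. Most of that sum in RNAi 2 was Cyp4g1, at 8101 CPM against 1245 to 3528 CPM in controls. The other oenocyte markers, Fad2, eloF, CG18031 and bond, lay inside their control ranges in RNAi 2. The part of these differences in the family's values was not tested. Malpighian tubule markers summed to 45.6 to 95.7 CPM in controls and 47.8 to 107.4 CPM in RNAi, and olfactory markers to 4.48 to 6.13 CPM and 3.65 to 9.93 CPM. Hemocyte markers summed to 86.2 to 242.9 CPM and 45.5 to 88.0 CPM, with 2 of the 5 called lower, beside 2.21% of all tested genes.

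UGTs depend on a supply of UDP-sugars and work beside other conjugating enzymes and export pumps. Of 48 genes in 6 such lists, 44 were tested. Of these 1 rose and 1 fell, both export pumps, beside 0.995% higher and 2.21% lower over all tested genes. For counts at an unadjusted p below 0.05 in these lists, the share of all tested genes was not computed. DESeq2 called 523 genes in all. Among 13 tested genes that make, interconvert or carry UDP-sugars (median log2 change 0.00) edgeR made 0 calls, with 1 gene at an unadjusted p below 0.05 and 1 called by DESeq2. UGP, which makes UDP-glucose itself, stood at 240.7 ± 56.3 CPM in controls and 296.5 ± 86.9 CPM in RNAi (log2 change 0.30 ± 0.34 SE, adjusted p = 0.887). The transporter gene frc was listed at 0 in all libraries.

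Of 6 tested other users of UDP-glucose none passed by edgeR, with 0 at an unadjusted p below 0.05, 0 called by DESeq2 and a median log2 change of -0.41. The trehalose synthase gene Tps1 had a log2 change of -0.50 (adjusted p = 0.765) and GlcT-1, which makes glucosylceramide, one of -0.59 (adjusted p = 0.562). Of 6 tested regulators known to act on detoxification genes none passed by edgeR, with 0 at an unadjusted p below 0.05, 0 called by DESeq2 and a median of 0.42. The gene of the Nrf2 relative CncC, cnc, stood at 51.2 ± 13.6 CPM in controls and 65.9 ± 22.3 CPM in RNAi (log2 change 0.37 ± 0.34 SE, adjusted p = 0.836). Its partner maf-S had a log2 change of -0.43 (adjusted p = 0.796).

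Of 13 tested export pumps of the ABCB and ABCC classes, 1 rose, 1 fell and 11 did not pass, with a median log2 change of 0.60. The shares over all tested genes were 0.995% higher and 2.21% lower. CG11898 went from 463.9, 200.02, 148.0 and 270.8 CPM in controls 1 to 4 to 19.2, 49.0, 20.5 and 67.0 CPM in RNAi 1 to 4. The groups did not overlap, and the gene fell (log2 change -2.80 ± 0.52 SE, adjusted p = 0.0119), but with both control 3 and RNAi 2 omitted it did not pass (log2 change -3.11, adjusted p = 0.0750). CG31793 went from 5.30, 3.23, 3.11 and 5.82 CPM to 15.3, 35.0, 20.5 and 6.55 CPM. It rose (log2 change 2.15 ± 0.49 SE, adjusted p = 0.0343), although RNAi 4 lay just above the controls. This call ended without control 1, control 2, control 3, RNAi 2 or RNAi 3 (adjusted p = 0.0598, 0.108, 0.0856, 0.106 and 0.0847), with both control 3 and RNAi 2 omitted (adjusted p = 0.205) and with limma-voom (adjusted p = 0.0587). CG4562 had a log2 change of 1.15 (adjusted p = 0.159) and CG10505 one of 2.48 (adjusted p = 0.167, and 0.0254 by DESeq2).

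Sulfotransferases conjugate sulfate in place of a sugar. Of 3 tested, edgeR called 0, with 2 at an unadjusted p below 0.05, St3 and St4, and DESeq2 called 1, St4, as higher. The unadjusted count has no share of all tested genes to be set against. St3 stood at 29.7 ± 11.1 CPM in controls and 12.5 ± 7.79 CPM in RNAi (log2 change -1.25 ± 0.44 SE, adjusted p = 0.193), and without RNAi 4 it passed (log2 change -1.78, adjusted p = 0.0227). St1 had a log2 change of -0.51 (adjusted p = 0.782), and St4, scarce at up to 2.55 CPM, one of 2.35 (adjusted p = 0.202). Of 3 glucosidase and glucuronidase genes, whose enzymes split off sugars, 0 were called by edgeR or DESeq2, with 1 at an unadjusted p below 0.05. CG15117 had a log2 change of -1.33 ± 0.44 (SE, adjusted p = 0.159) and CG2135 one of 0.21 (adjusted p = 0.940).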

How the data were processed

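The deposited files hold raw read counts per gene, 1 library each, in the layout of featureCounts per the file headers. The submitters' processing notes name Trimmomatic 0.36, STAR 2.5.2b, featureCounts (Subread 1.5.2) and build BDGP6. They do not give the annotation release, the strand setting or how multi-mapping reads were counted. Coordinates and exon lengths are those of the files. Current symbols and FlyBase identifiers come from RefSeq's annotation of Release 6 and a gene name table. No sequence was used here.

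Counts were tested in R 4.3.3 with edgeR 4.0.16 (filterByExpr by genotype, TMM factors, glmQLFit and glmQLFTest, no covariate, Benjamini-Hochberg over 9846 genes), and the procedure was tested on simulated data. The SE follows from the F statistic. CPM uses TMM factors, TPM does not. Ratios of neighbours had 0.5 counts added, and their permutations ran over all 70 assignments. The common biological coefficient of variation of 0.500 exceeds counting error for all but scarce genes.

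Members and lists were chosen with earlier results of these data known. Per-library values are printed for members that passed, had groups apart or were among the 6 highest in TPM. Ugt86Dd, St4, Pvf2, single markers and the neighbours of the changed pairs were named after their values were seen. From a list, up to 4 genes with the smallest adjusted p are named if any passed, otherwise the 2 highest in CPM. The values of 1 gene of the UDP-sugar list are not reported here. Alternatives were DESeq2 1.42.0, RLE factors, TMM with the 20 most abundant genes taken out, voom of limma 3.58.1, no filter, mean CPM from 1 upwards, a replicate block, each library left out, and 2 pairs of libraries left out.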

Additional observations from a re-analysis of the deposited data

Results flagged for a closer look

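Each of the 20 tested members was examined in both genotypes, 40 groups of 4 libraries, for a library far from the other 3. This was found in 3 groups, where chance gives about 1 in 20, and each time the library was RNAi 2. Dot was at 3.17 CPM there and 1.51 to 1.76 CPM in the other RNAi libraries. Ugt36Bc was at 9.60 CPM against 3.24 to 3.85 CPM. CG10170 was at 2.39 CPM against 0.604 to 0.832 CPM.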

How the results depend on the processing

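In 17 other settings 3 or 4 UGT genes rose, except 1 (CG5999) with control 3 and RNAi 2 omitted, and 0 fell. The count over all genes, 316, was 523 with DESeq2, 141 with the replicate block, 96 with control 3 and RNAi 2 omitted, and 162 to 504 with each library left out. Lower UDP-sugar genes numbered 1 with DESeq2 and 0 to 1 with each library left out. Higher export pumps numbered 2 with DESeq2, 0 with limma-voom, the replicate block or control 3 and RNAi 2 omitted, and 0 to 1 with each library left out. Lower ones numbered 0 with that pair omitted. Higher sulfotransferases numbered 1 with DESeq2, and lower ones 0 to 1 with each library left out. Signs turned only in genes that did not pass. With each library left out the log2 change ran from -1.20 to 0.10 for x16, -0.01 to 0.60 for Dot, -0.00 to 0.87 for Ugt36Bc, -0.06 to 0.49 for CG17323, -0.04 to 0.59 for CG3797, -0.16 to 0.56 for Ugt35b and -0.10 to 0.42 for CG2135. With control 3 and RNAi 2 omitted it was 0.36 for x16, -0.20 for Dot, -0.22 for Ugt36Bc, -0.09 for CG3797, -0.14 for Ugt35a, -0.03 for cnc and -0.19 for CG2135, and with control 4 and RNAi 1 omitted -0.21 for Ugt35b. The cause was not tested. The median of all genes, 0.01, was 0.10 with TMM without the 20 most abundant genes and 0.11 with no filter.

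Replicate numbers did not pair the libraries: deviations of same-numbered libraries correlated at -0.59 to -0.02, and 0 matched their own number best. With the replicate block CG4302 (log2 change 1.66, adjusted p = 0.0937) and CG31793 (1.99, adjusted p = 0.208) were lost. Depth limits the 15 untested genes and the 3 tested members with a mean below 1 CPM in both groups, Ugt86Di, Ugt86Dh and CG16732.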
